A study of Mus musculus with 8 samples.

Results

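The genes described here encode the proteins of the mitochondrial ribosome, read by RNA-seq in the white quadriceps, a fast glycolytic muscle, of fasted male mice. Rows of the deposited table were taken as members when their symbol was Mrpl or Mrps followed by a number and at most 1 letter. This gave 77 of 54091 gene rows, and pseudogene rows with the ending -ps were left out. Of the 77, 50 belong to the large subunit of the assembled ribosome and 26 to the small subunit; Mrps18a and Mrps30 are counted with the large subunit, where their proteins sit despite their names. Mrps36 carries a ribosomal name but its protein is now known as a part of the oxoglutarate dehydrogenase complex, so it is given separately. A mean normalized count of at least 10, the level asked of a gene before it was tested, was reached by 76 members and missed by Mrpl53.

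All 8 mice were males aged 11 to 14 weeks that were fasted overnight for 14 h and harvested in the morning. The 4 floxed controls (genotype Loxp/Loxp, numbered 1 to 4) are not labelled with a Cre, and the 4 Acot2 muscle knockouts (numbered 5 to 8) carried Cre under the CKM promoter, which is active in muscle fibres and not in the other cells of the tissue. Cre without floxed alleles was not analysed here, and the Cre and the loss of Acot2 cannot be told apart. The product of Acot2 is a thioesterase of the mitochondrial matrix, which frees fatty acids from coenzyme A, and the title of the series concerns its part in fatty acid oxidation in glycolytic muscle.

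The mitochondrial ribosome translates the few proteins encoded by mitochondrial DNA, all of them core parts of the respiratory chain and of ATP synthase. Its RNAs come from the mitochondrial genome, while every one of its proteins is made from nuclear genes and imported. Many of these proteins descend from those of bacterial ribosomes, and others were added during the evolution of mitochondria. White muscle has few mitochondria beside red muscle.

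Values are normalized counts, that is reads divided by 1 size factor per library, or the deposited log2 of that count plus 1. Differences are knockout minus floxed control on this log2 scale. Each carries the SE, or standard error, from a limma fit across 13141 genes, and p-values were adjusted over all of them by the Benjamini-Hochberg method. Reads on genes ranged from 28659628 to 40977874 per library. Acot2 itself had 1675, 3927, 2492 and 1530 normalized counts in controls 1 to 4, against 413, 312, 600 and 543 in knockouts 5 to 8. Its knockout mean was 19.4% of the control mean and the groups did not overlap (exact two-sided permutation p = 0.0286, the smallest that 4 against 4 allows). In the fit across all genes its difference of -2.30 (SE 0.287) had a limma adjusted p of 0.087. The muscle markers Acta1 and Ckm averaged 695045 and 555279 normalized counts in the control group.

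Mitochondrial ribosomal protein genes were slightly higher in the knockout as a list, and none was called by itself. Of the 76 tested members 70 (92.1%) had a difference above 0, against 50.6% of all tested genes. The median difference was 0.16, or 1.12-fold, with members from -0.12 (Mrps34) to 0.36 (Mrpl28); the median over all tested genes was 0.0031. Limma called 0 members at an adjusted p under 0.05, as it called 0 of all tested genes (0.0%), and the smallest adjusted p of a member was 0.746. At an unadjusted p under 0.05, 9 members (11.8%) were higher and 0 lower, against 2.47% and 3.7% of all tested genes, and limma's voom on recovered reads also gave 9, 0 and no call. The upper end of the 95% interval stayed under a 1.5-fold rise for 68 of the 76.

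**Figure D1:**
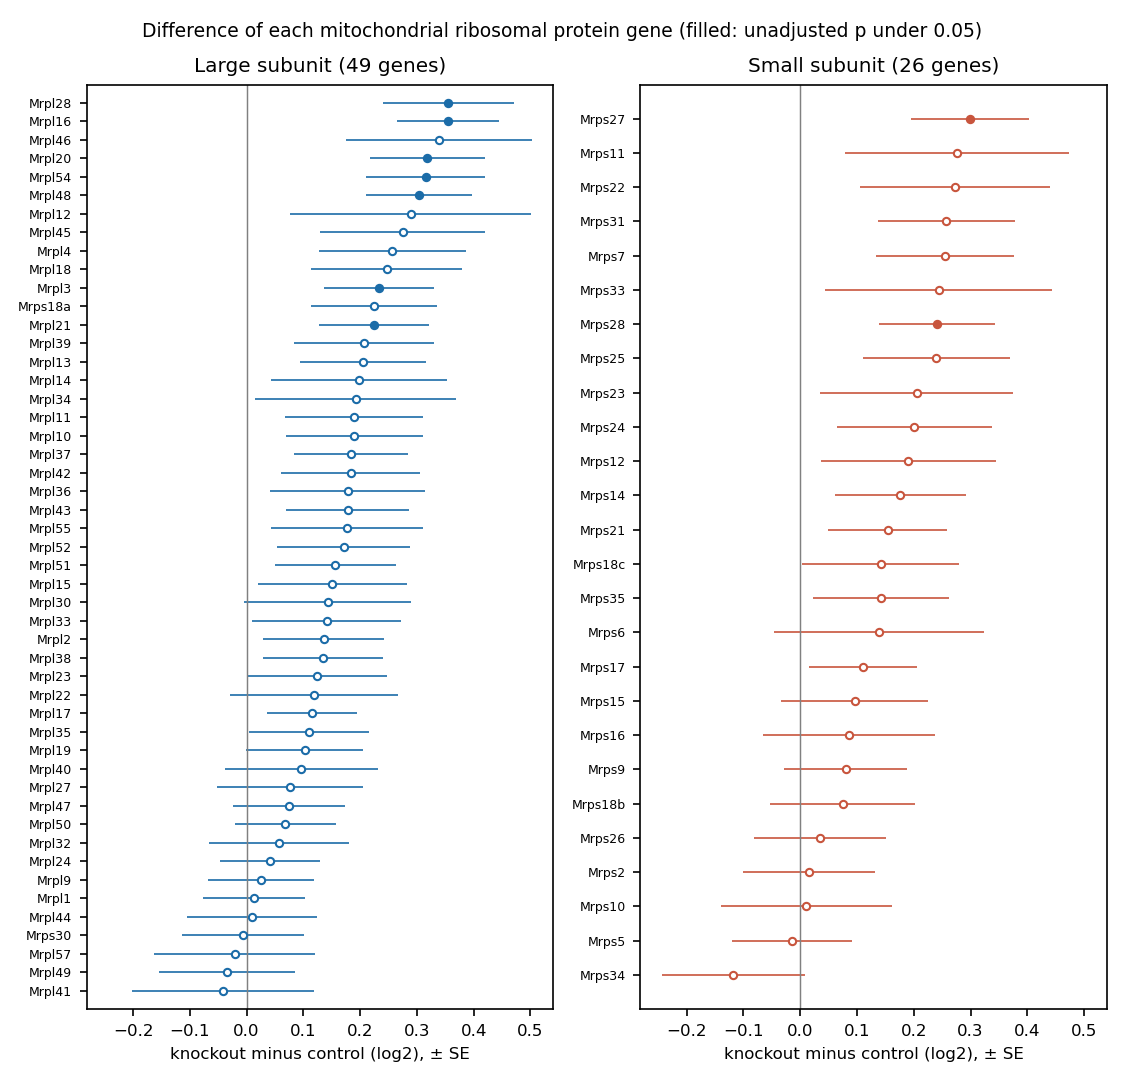
Knockout minus floxed control difference (log2, horizontal axis) of each tested gene of the large (left, 49 genes) and small (right, 26 genes) subunit, with bars of 1 SE; filled points had an unadjusted limma p under 0.05. Most points lie right of 0, between -0.12 and 0.36, and 9 are filled.

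The list did not separate the genotypes mouse by mouse. The mean log2 value over tested members was 9.13, 9.15, 9.15 and 8.96 in controls 1 to 4, against 8.97, 9.35, 9.30 and 9.38 in knockouts 5 to 8. Knockouts 6, 7 and 8 therefore lay above every control, and knockout 5 lay at the level of floxed control 4, below the other controls. In 43 of 76 members knockouts 6, 7 and 8 were each above every control, against 7.9% of all tested genes. All 4 knockouts were above every control in 4 members (Mrpl16, Mrpl20, Mrpl48 and Mrps27), or 5.26% against 1.13% of all tested genes, and below every control in 0, against 1.62%.

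Knockout 5 had the lowest value of the 4 knockouts in 73 of 76 members, against 30.0% of all tested genes, and floxed control 4 the lowest of the 4 controls in 55, against 28.1%. Knockout 5 was above every control in 4 members, whereas knockouts 6, 7 and 8 were in 58, 51 and 61. This order was not particular to the members, since floxed control 4 and knockout 5 were also lowest in related lists, given below. Both libraries also had the largest share of titin transcript in their group. Titin took 14.9% of normalized counts in floxed control 4 and 11.8% to 12.8% in the other controls, and 13.9% in knockout 5 against 8.34% to 9.22% in the other knockouts. The part of that share in the member values was not tested. Without knockout 5 the median member difference was 0.26, and 43 members had an unadjusted limma p under 0.05, against 8.1% of all tested genes, with a smallest adjusted p of 0.103. Knockout 5 was singled out for its low member values, so a rise on leaving it out was built in and is no support for a difference. Leaving out knockout 6, 7 or 8 instead gave 6, 8 and 6 such members. Without floxed control 4 the median was 0.11 with 6 such members (1.11% of all tested genes), and without both libraries 0.22 with 33 (5.21%).

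**Figure D2:**
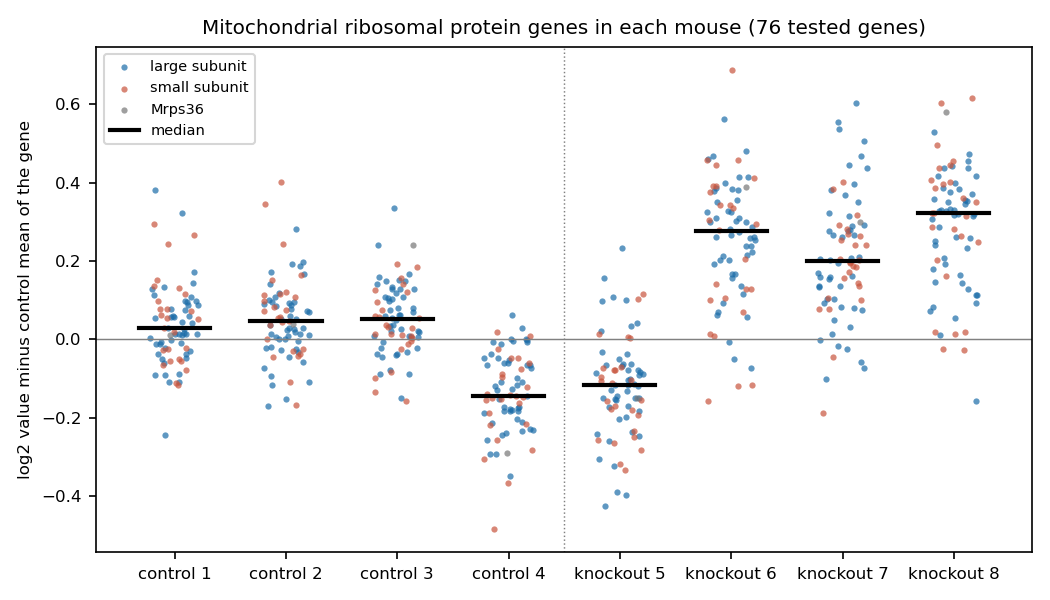
Log2 value of each of the 76 tested genes minus the mean of that gene in floxed controls (vertical axis), by mouse; colours give the subunit and black bars the median of the mouse. Values of floxed control 4 and knockout 5 lie mostly below 0, and those of knockouts 6, 7 and 8 mostly above it.

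The large and small subunits varied together across mice. Large-subunit genes had a median difference of 0.17 with 45 of 49 above 0, and small-subunit genes 0.15 with 24 of 26 above 0. The mean log2 value of large-subunit genes exceeded that of small-subunit genes by 0.59 to 0.65 in every mouse, a range of levels far narrower than the 8.96 to 9.38 spanned by the whole list. The control mean of this balance was 0.62 ± 0.0303 (SD, n = 4), and the knockout mean 0.63 ± 0.0228 (SD, n = 4). Members that take the place of a bacterial protein in the ribosome were above 0 in 45 of 46 (median 0.15), among them all 30 of the large subunit. The other tested ribosomal members were above 0 in 24 of 29 (median 0.18); these include Mrps18a and Mrps18b, which are related to a bacterial protein but sit elsewhere. Whether the 2 classes differ was not tested. Summed over members, normalized counts ran from 44289 to 50439 in controls and from 44700 to 59815 in knockouts, or 0.124% to 0.179% of all normalized counts of a mouse.

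Of the 9 members with an unadjusted p under 0.05, 7 belong to the large and 2 to the small subunit. Mrpl16, a homologue of a bacterial protein near the site where aminoacyl-tRNA binds, lies on chromosome 19 from 11770391 to 11774960 (GRCm38, plus strand). It had 641, 701, 687 and 608 normalized counts in controls 1 to 4, against 772, 862, 828 and 914 in knockouts 5 to 8. Its 2 groups did not overlap and the difference was 0.36 (SE 0.0896, limma unadjusted p = 0.00224). Mrpl28, also of bacterial descent, had 512, 519, 553 and 445 in controls and 539, 659, 732 and 675 in knockouts. Only knockout 5 fell within the control range of Mrpl28, at a difference of 0.36 (SE 0.115). Mrpl20, whose bacterial counterpart binds ribosomal RNA early in assembly, had 387, 365, 366 and 371 in controls and 402, 485, 513 and 465 in knockouts, again without overlap (difference 0.32, SE 0.101). Mrpl3, near the peptidyl transferase centre, had 904, 766, 837 and 798 in controls and 836, 1015, 1006 and 1035 in knockouts. Knockout 5 lay inside the control range of Mrpl3, and the difference was 0.23 (SE 0.0965). Mrpl21, of bacterial descent, had 595, 587, 611 and 563 against 606, 737, 655 and 765, where knockout 5 was below floxed control 3 (difference 0.22, SE 0.0967).

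Of the proteins added in mitochondria, Mrpl48 is part of the central protuberance, the large subunit's crest. Mrpl48 had 637, 600, 585 and 567 normalized counts in controls 1 to 4, against 664, 828, 722 and 741 in knockouts 5 to 8, without overlap, at a difference of 0.30 (SE 0.0931, limma unadjusted p = 0.0077). The gene lies on chromosome 7 from 100545751 to 100608301 (GRCm38, minus strand). Mrpl54, another protein without a bacterial counterpart, had 646, 689, 731 and 582 in controls and 707, 874, 863 and 854 in knockouts. For Mrpl54 only knockout 5 was inside the control range (difference 0.32, SE 0.105). In the small subunit, Mrps27, a protein with pentatricopeptide repeats on chromosome 13 from 99344786 to 99415562 (plus strand), had 475, 510, 519 and 467 in controls and 534, 638, 569 and 695 in knockouts. Its groups did not overlap, with a difference of 0.30 (SE 0.104). Mrps28, the counterpart of a bacterial mRNA-binding protein, had 827, 817, 789 and 741 against 801, 981, 908 and 1081, where knockout 5 was below 2 controls (difference 0.24, SE 0.102). All 9 of these members had a limma adjusted p of 0.746, so each is a value and not a call, and a gene picked for a small p tends to show little overlap.

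**Figure D3:**
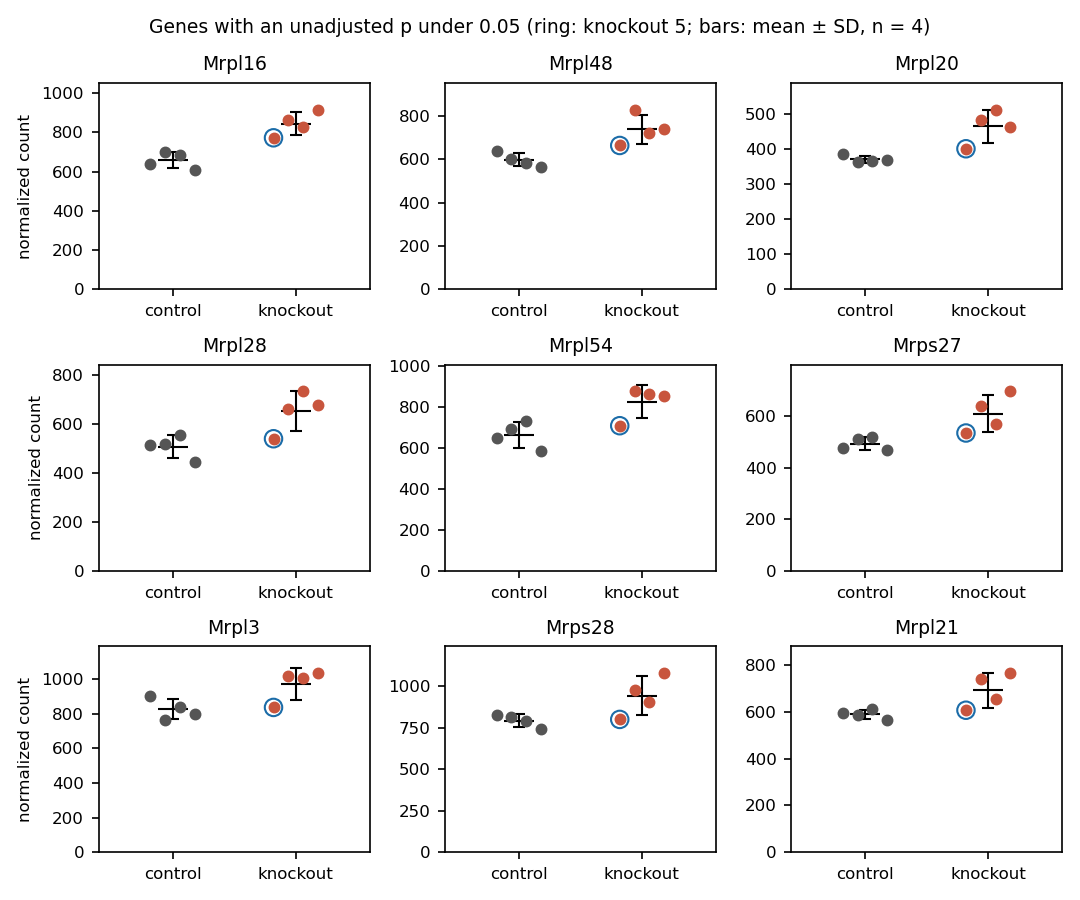
Normalized count (vertical axis, from 0) of the 9 genes with an unadjusted limma p under 0.05 in the 4 floxed controls (grey) and the 4 knockouts (red), with mean ± SD. The ring marks knockout 5, which is the lowest knockout in all 9.

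Promoter sequence was looked up because the members varied together between mice. The 250 bases before and 50 bases after the start were available from RefSeq (GRCm38.p6) for 68 of the 77 genes, and were searched on both strands. The letters GCATGCGC, the core bound by NRF1, a regulator of nuclear genes for mitochondria, were found in 8 of 68 members (11.8%), against 5.94% of tested genes and 3.05% of all genes in that table. The letters CCGGAAG, bound by ETS factors such as GABP, were found in 25 (36.8%), against 19.7% and 9.93%. The letters AAGATGGCG, bound by YY1, were found in 8 (11.8%), against 3.62% and 1.64%, and the E-box CACGTG in 5 (7.35%), against 11.9% and 8.09%. Genes with several starts count once. Tested members with the ETS letters had a median difference of 0.17 (24 genes) and those without them 0.14 (43 genes); for the NRF1 letters the medians were 0.12 (8 genes) and 0.18 (59 genes). For the YY1 letters they were 0.19 (8 genes) and 0.14 (59 genes), and for the E-box 0.18 (5 genes) and 0.16 (62 genes). None of these differences was tested.

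The stretches before the start, up to 150 bases and stopping at annotated exons, are shown 5′ to 3′ for 4 members, with matches in capitals. No 2 matches overlap in them. Every extracted stretch with a match is shown. Those of Mrpl48, Mrpl28, Mrpl3, Mrpl17 and Mrpl33 were also extracted, held none of the 4 motifs and are not shown. Mrpl17 and Mrpl33 were taken, like Mrpl22, because their full windows hold both the NRF1 and the ETS letters. Over all starts, the full windows of Mrpl48 and Mrpl3 hold the ETS letters, and that of Mrps27 holds the YY1 and the ETS letters. No stretch was extracted for Mrps18b, whose window holds the NRF1 and the ETS letters, or for Mrpl21, whose window holds the ETS letters. Mrpl16, with the smallest p, holds none of the 4 motifs in its stretch (chr19:11770265-11770390, plus strand).
Mrpl16: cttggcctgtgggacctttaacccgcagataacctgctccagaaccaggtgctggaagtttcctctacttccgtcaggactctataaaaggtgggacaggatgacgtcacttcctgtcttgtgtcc
Mrpl20 holds an E-box (chr4:155802728-155802877, plus strand).
Mrpl20: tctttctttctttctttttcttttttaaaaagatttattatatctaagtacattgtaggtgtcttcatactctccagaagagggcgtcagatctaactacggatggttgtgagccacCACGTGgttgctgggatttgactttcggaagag
Mrps27 holds the ETS letters, read on the other strand, in the short stretch between it and the gene Ptcd2, which is transcribed the opposite way (chr13:99344706-99344785, plus strand).
Mrps27: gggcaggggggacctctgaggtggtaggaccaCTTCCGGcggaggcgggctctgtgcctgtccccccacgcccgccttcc
Mrpl22, chosen after the search because it holds both kinds, has the ETS letters followed by the NRF1 letters on the other strand (chr11:58171514-58171660, plus strand).
Mrpl22: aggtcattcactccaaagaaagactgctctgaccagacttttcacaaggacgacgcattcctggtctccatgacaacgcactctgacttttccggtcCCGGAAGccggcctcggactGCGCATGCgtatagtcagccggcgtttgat
Mrpl22, a protein at the wall of the exit tunnel, had 261, 250, 264 and 257 normalized counts in controls 1 to 4, against 208, 343, 298 and 288 in knockouts 5 to 8. Knockout 5 was the lowest of all mice and the other knockouts the highest, with a difference of 0.12 (SE 0.148). A match of letters is not a bound site.

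Members with well known roles had values on both sides of the list's median. Mrpl12, which forms the stalk that recruits elongation factors, had 871, 1128, 1033 and 730 normalized counts in controls 1 to 4, against 705, 1371, 1412 and 1209 in knockouts 5 to 8. Knockout 5 was the lowest of all mice and the other knockouts exceeded every control, and the difference was 0.29 (SE 0.213, limma adjusted p = 0.775). Mrpl11, at the base of the stalk, had 682, 705, 637 and 603 against 583, 816, 796 and 827, with the same order of mice (difference 0.19, SE 0.122). Mrpl45, which fixes the ribosome to the inner membrane at the tunnel exit, had 899, 909, 1070 and 763 in controls and 848, 1240, 1042 and 1305 in knockouts, where knockouts 6 and 8 exceeded every control (difference 0.27, SE 0.145). Mrpl44, related to ribonuclease III, had 604, 699, 620 and 527 against 541, 579, 670 and 675, ranges that overlap almost fully (difference 0.010, SE 0.114). Mrpl41, of the large subunit and without a bacterial counterpart, had the lowest difference there, with 1184, 810, 817 and 871 in controls and 694, 1131, 850 and 913 in knockouts. For Mrpl41 the difference of -0.041 (SE 0.16) became 0.085 without floxed control 1 and 0.074 without knockout 5.

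In the small subunit, Mrps12 belongs to the decoding centre, where the mRNA codon is read. Mrps12 had 447, 352, 378 and 295 normalized counts in controls 1 to 4, against 366, 462, 354 and 500 in knockouts 5 to 8, with overlapping groups (difference 0.19, SE 0.155). Mrps22, linked to inherited mitochondrial disease in humans, had 308, 372, 314 and 269 against 277, 411, 381 and 478, with knockouts 6, 7 and 8 above every control (difference 0.27, SE 0.167). Mrps34, also a disease gene, had the lowest difference of any member, with 472, 399, 515 and 424 in controls and 361, 414, 395 and 502 in knockouts. Only knockouts 5 and 7 were below every control of Mrps34, and the difference of -0.12 (SE 0.126, limma adjusted p = 0.839) was smaller than its SE. Mrps36, of the oxoglutarate dehydrogenase complex, had 289, 294, 339 and 235 against 259, 377, 353 and 431 with knockouts 6, 7 and 8 above every control (difference 0.28, SE 0.167).

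The Mrps18 paralogues, 3 descendants of 1 bacterial protein, sit at different places in the ribosome. Mrps18a, now in the large subunit, had 788, 853, 872 and 834 normalized counts in controls 1 to 4, against 781, 1033, 1025 and 1104 in knockouts 5 to 8. Its knockouts 6, 7 and 8 exceeded every control (difference 0.23, SE 0.111). Mrps18b had 444, 434, 446 and 419 against 387, 401, 514 and 557 (difference 0.075, SE 0.127), and Mrps18c had 233, 192, 176 and 190 against 197, 249, 235 and 194 (difference 0.14, SE 0.138). In both of these 2 knockouts exceeded every control, and for Mrps18b the other 2 knockouts lay below every control. Per kilobase of exon, Mrps18a had 879 normalized counts, Mrps18b 417 and Mrps18c 221, averaged over all mice. Annotation overlaps limit these levels, since 59.1% of the exon length of Mrps18b is shared with Gm16279 on the opposite strand and 18.5% of that of Mrps18c with Gm43511 on the same strand, and the strand setting of the counting is not given in the sources used here.

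Levels per kilobase of annotated exon differed far more between members than between genotypes. Over all mice the median of the tested members was 416 normalized counts per kilobase, 470 in the large and 275 in the small subunit. The most abundant were Mrpl42, at 3952, and Mrpl30, at 1602, in the large subunit, and Mrps21, at 2105, and Mrps28, at 1109, in the small. The lowest tested were Mrpl19, at 73.2, in the large subunit, and Mrps25, at 65.3, and Mrps35, at 80.5, in the small. Mrpl42 had 2582, 2653, 2678 and 2114 normalized counts in controls 1 to 4, against 2252, 3126, 2863 and 3200 in knockouts 5 to 8, so the low values of floxed control 4 and knockout 5 were also seen for the member with the most reads (difference 0.18, SE 0.122). Differences of the others were 0.14 (SE 0.147) for Mrpl30, 0.15 (SE 0.104) for Mrps21, 0.10 (SE 0.103) for Mrpl19, 0.24 (SE 0.13) for Mrps25 and 0.14 (SE 0.12) for Mrps35. The exons of Mrps25 and Mrpl19 span 6073 and 5000 bases, and 58.2% and 39.2% of that length is shared with a gene on the opposite strand, so their levels per kilobase are uncertain.

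**Figure D4:**
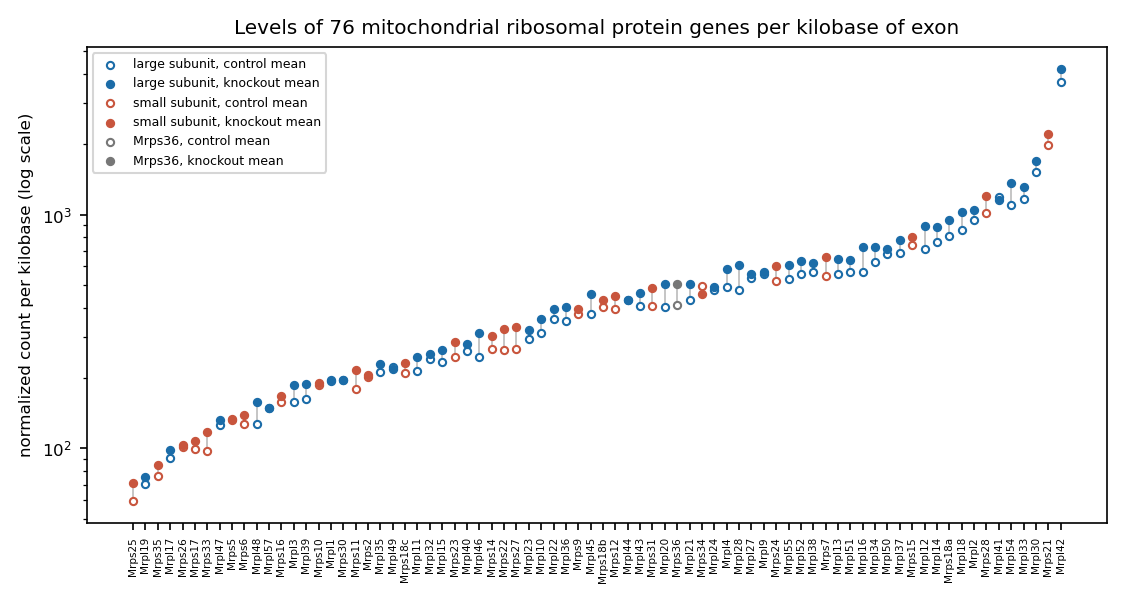
Mean normalized count per kilobase of annotated exon (vertical axis, log scale) of the 76 tested genes, sorted by their mean over all mice; open points are floxed control means, filled points knockout means, and lines join the 2. The range over genes is from 65.3 to 3952, and the distance within each pair is small beside it.

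Mrpl53 was all but missing from the table. It had 1 recovered read in all 8 libraries together, in knockout 7, and 0 in the other 7 libraries, whereas the member next above it, Mrps6, had a mean of 112 normalized counts. In GRCm38 Mrpl53 lies on chromosome 6 from 83109040 to 83109939 (plus strand), and 100% of its exon length is shared with the predicted gene Gm42688 on the same strand, which itself had at most 5.21 normalized counts. The part of that overlap in the value was not tested. No level or difference is given for Mrpl53.

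Other genes of mitochondrial translation were described from lists by their role. Of 6 ribosomal proteins with other symbols, each was above 0, among them Ptcd3, a pentatricopeptide protein of the small subunit (0.29, SE 0.114), and Aurkaip1, of the small subunit (0.22, SE 0.105). Of 17 factors of mitochondrial translation and its mRNAs, 16 were above 0 with a median of 0.20, and 5 had an unadjusted limma p under 0.05 (Taco1, Gfm1, Guf1, Tsfm and Gfm2). All 5 were higher, against 2.47% of all tested genes at that p. Taco1, which helps to translate a cytochrome oxidase subunit, had 685, 611, 688 and 595 normalized counts in controls 1 to 4, against 636, 1023, 864 and 802 in knockouts 5 to 8 (difference 0.35, SE 0.135). Gfm1, an elongation factor, had 3521, 3398, 3706 and 3029 against 3450, 4500, 3957 and 4209 (difference 0.24, SE 0.0987). In both, knockout 5 lay within the control range and the other knockouts above it. Of 26 genes for ribosome assembly and rRNA modification, 16 (61.5%) were above 0, against 50.6% of all tested genes, and the median of the 26 was 0.11. Among the 16 were the rRNA methyltransferase Nsun4 (0.29, SE 0.127) and the RNA-binding protein Fastkd2 (0.25, SE 0.126). The lowest of the 26 were Malsu1 (-0.16, SE 0.101) and Noa1 (-0.12, SE 0.1). All these genes had a limma adjusted p of at least 0.746. The ribosome's own RNAs, mt-Rnr1 and mt-Rnr2, differed by 0.083 (SE 0.182) and 0.10 (SE 0.319). All 13 tested genes of the mitochondrial genome, these RNAs included, were above 0 (median 0.20, 0 at an unadjusted limma p under 0.05). The largest of these differences came from rows with few reads, ND3 (0.67), ATP6 (0.46), COX2 (0.32) and COX3 (0.29). Their control means were 16.3, 45.0, 70.7 and 150 normalized counts, against 689566 for COX1, so these rows weigh little as levels. ND4L and ATP8 were too low to be tested.

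Beside related lists, the members' median lay between those of complex I of the respiratory chain and of the cytosolic ribosome. All 35 complex I subunits were above 0 (median 0.25), as were 16 of 17 mitochondrial tRNA synthetases (median 0.097) and 70 of 74 tested cytosolic ribosomal proteins (median 0.094). The members' mean log2 value minus that of complex I subunits ran from -2.45 to -2.18 over the 8 mice, and minus that of cytosolic ribosomal proteins from -1.995 to -1.84. In each of these 3 lists floxed control 4 and knockout 5 had the lowest mean log2 value of their group. For complex I these were 11.1 and 11.3, against 11.5 in each other control and 11.8 in each other knockout. For tRNA synthetases they were 8.19 and 8.24, against 8.20 to 8.30 and 8.35 to 8.37. For cytosolic ribosomal proteins they were 10.95 and 10.86, against 11.04 to 11.14 and 11.14 to 11.34. Whether the lists differ from each other was not tested, and these means are not set per kilobase.

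**Figure D5:**
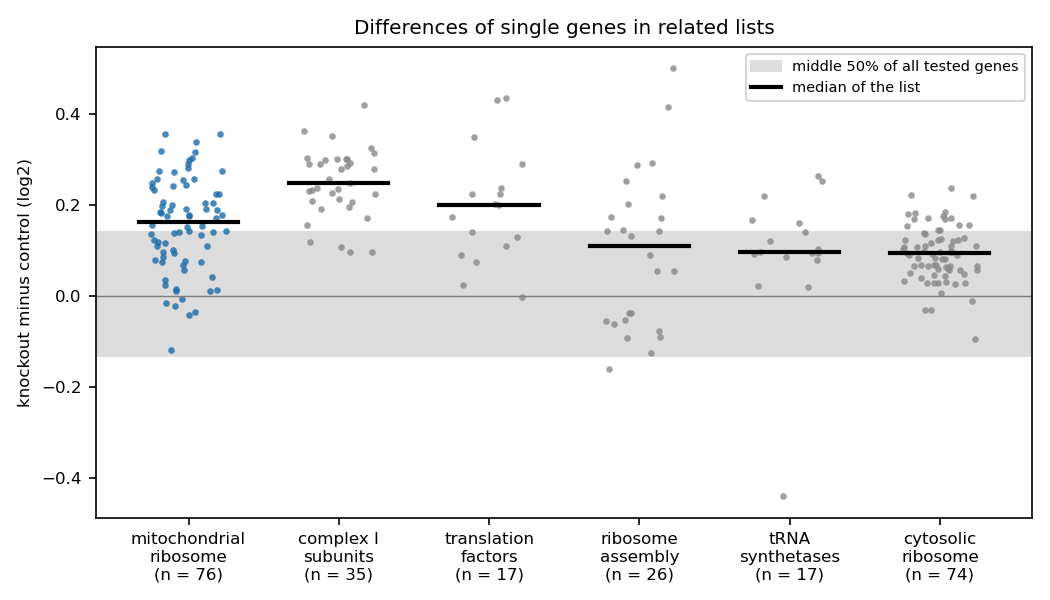
Knockout minus floxed control difference (log2, vertical axis) of single genes in 6 lists, with the median of each list as a bar; the grey band holds the middle 50% of all 13141 tested genes. The medians run from 0.094 for the cytosolic ribosome to 0.25 for complex I, and single genes of each list overlap those of the others.

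No marker of another cell or fibre type was called, with a smallest limma adjusted p of 0.746, and the part of their values in those of the members was not tested. In bulk muscle, more cells of a type and more RNA per cell cannot be told apart. Of all tested genes 50.6% were above 0, and 2.47% were higher at an unadjusted limma p under 0.05. Macrophage markers were above 0 in 9 of 9 tested (5 at an unadjusted limma p under 0.05), with summed normalized counts of 1326 to 2352 in controls and 2199 to 3965 in knockouts. The sum of 3965 was that of knockout 6, and the other knockouts had 2199 to 2721. Endothelial markers were above 0 in 8 of 10 (4 at that p), with sums of 8316 to 9610 and 9578 to 11290, and knockout 5, the lowest knockout for the members, had the highest endothelial mean (9.77 on the log2 scale). Markers of slow and oxidative fibres were above 0 in 8 of 9 (1 at that p) with sums of 11046 to 39232 and 20596 to 103301. The sum of 103301 was that of knockout 7, where Myh2 alone had 59055. Knockouts 5, 6 and 8 had 20596, 24064 and 29068, within the control range, and Myh2 differed by -0.009 (SE 0.809). Fibroblast and tendon markers were above 0 in 5 of 10 (0 at that p), with sums of 32995 to 52662 and 31162 to 71160, and adipocyte markers in 4 of 6 (0), with sums of 2165 to 4815 and 2673 to 4965. Schwann cell and nerve markers were above 0 in 7 of 7 (1 at that p), with sums of 1371 to 2062 and 1497 to 2113, and blood markers in 6 of 6 (0), with sums of 1191 to 5429 and 2052 to 3251. No marker of these lists was at 0 in all mice.

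Of the 77 members, 19 (24.7%) have a protein-coding neighbour that starts on the other strand within 1000 bases and runs the opposite way, against 10.8% of tested coding genes. The median distance between the 2 starts was 81 bases. Of the 17 neighbours tested, 8 were above 0 with a median of -0.021, while the members beside them had a median of 0.14. Mrpl54 differed by 0.32 and its neighbour Apba3, 26 bases away, by -0.050 (SE 0.0766), and Mrps27 by 0.30 and Ptcd2 by 0.11 (SE 0.143). Mrpl36 and the complex I gene Ndufs6, whose starts overlap, had 0.18 (SE 0.136) and 0.19 (SE 0.132). The largest neighbour differences were 0.71 (SE 0.324) for Mitd1 beside Mrpl30, 0.38 (SE 0.193) for Cyb5rl beside Mrpl37 and -0.36 (SE 0.182) for Helq beside Mrps18c. No neighbour had an unadjusted limma p under 0.05, and the smallest was 0.0506 for Mitd1. None of these pairs was tested for a difference between its genes.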

How the data were processed

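RNA-seq libraries from white quadriceps of 8 mice, 4 per group, were read from 1 deposited table; each column was matched to its library by the mouse number. The deposited log2 values are, from the values themselves, log2 of a normalized count plus 1; divided by 1 step per library, 100% of values up to 200 reads fell no more than 0.1 read from an integer. Per the submitters' processing notes, cutadapt, FastQC, STAR, HTSeq and DESeq2 were used with GRCm38; the sources used here give no versions, annotation release, strand setting or filter. Per the labels' protocols, libraries came from a stranded TruSeq kit.

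The 13141 genes whose normalized counts averaged 10 or more were tested with limma 3.58.1 in R 4.3.3 (eBayes with a trend, Benjamini-Hochberg adjustment over all of them, threshold 0.05), after a test on simulated data. Depth was 28659628 to 40977874 reads on genes per library. The members, gene lists, named genes and tests were chosen with earlier results of these data known. Named were members with an unadjusted p under 0.05, and in each subunit the 2 highest and 2 lowest per kilobase and the lowest difference. Also named were members of known role and, for each of 5 lists of related genes, the 2 with the smallest p. Mrpl17, Mrpl22, Mrpl33, the markers, Tsfm, Guf1, Gfm2, Esrra, Esrrg, protein genes of the mitochondrial genome and neighbours were named after their values were seen. So were Nrf1, Gabpa, Gabpb1, Gabpb2, Ppargc1a, Malsu1 and Noa1. The mouse numbers in the labels make each library a separate animal. Positions and exon lengths are from GENCODE M21 (GRCm38), promoters from RefSeq. Alternatives were pseudocounts of 0.5 and 5, no filter, a filter at 50, TMM and total scaling, voom, a covariate for low or high mouse numbers, each mouse left out, floxed control 4 and knockout 5 left out together and, added after seeing the data, removal of length and GC trends.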

Additional observations from a re-analysis of the deposited data

Results flagged for a closer look

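A mouse stood apart from the 3 others of its group in 11 of 88 groups of 4 values examined, where chance alone flags about 1 in 20. For the mean log2 value over members, floxed control 4 was apart at 8.96, as it was for the large subunit (9.19) and the small subunit (8.55); knockout 5 was apart for the large subunit at 9.21. Single members with knockout 5 apart were Mrpl54 (9.47), Mrpl3 (9.71) and Mrpl11 (9.19), and Mrpl42 had floxed control 4 apart (11.05). The mean of the members lay 2.18 below that of complex I subunits in floxed control 4 (value -2.18), closer than in the other controls. Floxed control 2 was apart for Tfe3, a transcription factor of lysosomal and mitochondrial genes (7.80). Mrpl53 in knockout 7 (0.95) is the library with its only recovered read. These groups share mice and genes, so the flags are not separate.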

How the results depend on the processing

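No member was called by limma at an adjusted p under 0.05 in any of the settings run. The count of members with an unadjusted p under 0.05, 9 as reported, was 43 without knockout 5 and 33 without both floxed control 4 and knockout 5. With 1 mouse left out the count was 6 to 43, with 0 lower in each. For any mouse other than knockout 5, which was singled out for its low values, it was 6 to 8. Leaving out 1 mouse gave 63 to 75 members above 0 and medians from 0.11 to 0.26 over members, 0.11 to 0.27 in the large and 0.097 to 0.23 in the small subunit. Removing length and GC trends gave 62 above 0 and a median of 0.12. Total scaling raised the median of all genes by 0.041 and that of members to 0.21; relative to all genes the members' median was 0.16 in both. With total scaling, 66.5% of all genes at an unadjusted p under 0.05 were higher, against 40.0% as reported. Without the filter on low values Acot2 passed (-2.30, limma adjusted p = 0.00421), as it did without length and GC trends (-2.34, adjusted p = 0.0459); leaving out 1 mouse gave -2.49 to -2.03. Signs turned for Mrpl41 (range without 1 mouse -0.16 to 0.085) without floxed control 1 (0.085), knockout 5 (0.074) and both floxed control 4 and knockout 5 (0.054), for Mrps18b without knockout 8 (-0.018) and length and GC trends (-0.017), and for Mrpl44 (range without 1 mouse -0.059 to 0.076) without floxed control 4 (-0.059), knockout 7 (-0.032), knockout 8 (-0.036) and length and GC trends (-0.077); the cause was not tested. edgeR and DESeq2 on recovered reads were planned and not run; voom was the one method run on those reads. No paired analysis was run because neither the labels nor the column headers name pairs of mice across the groups.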

Other observations

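Of the genes for transcription and upkeep of mitochondrial DNA, 5 of 11 tested were above 0 with a median of -0.018 and 0 had an unadjusted limma p under 0.05. Tfb2m, which starts mitochondrial transcription, differed by 0.17 (SE 0.0942) and Polg, the mitochondrial DNA polymerase, by -0.11 (SE 0.07). Regulators of nuclear genes for mitochondria were above 0 in 7 of 16 with a median of -0.055. Among the 7, Esrra had 1174, 1189, 1157 and 910 normalized counts in controls 1 to 4. Knockouts 5 to 8 had 971, 1452, 1522 and 1450 (difference 0.27, SE 0.148). Esrrg had 212, 193, 200 and 85.3, against 108, 267, 452 and 326 (difference 0.65, SE 0.411). In both, floxed control 4 and knockout 5 were lowest in their group, and knockouts 6, 7 and 8 exceeded every control. Esrra and Esrrg were named after their values were seen, and a link to the members was not tested. Of the regulators whose motifs were searched, Nrf1 differed by -0.12 (SE 0.0997) and Gabpa by -0.056 (SE 0.0787). Gabpb1 and Gabpb2 differed by 0.023 (SE 0.148) and 0.038 (SE 0.131), and Ppargc1a, also of the list, by 0.0051 (SE 0.143). Tfe3 and Yy1, both below 0, had the smallest p of the list. The control mean of Tfe3 was 271 ± 33.2 normalized counts (SD, n = 4) and its knockout mean 216 ± 32.4 (SD, n = 4), a difference of -0.33 (SE 0.144). For Yy1 these were 2057 ± 160 (SD, n = 4) and 1797 ± 189 (SD, n = 4), a difference of -0.20 (SE 0.0943). The smallest limma adjusted p was 0.748 in the first of these lists and 0.746 in the second. Whether these lists differ from the ribosomal list was not tested.

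Of the pseudogene rows left out by the rule, Mrpl23-ps1 had the most reads, with a mean of 11.9 normalized counts, and Mrps36-ps1 had 5.80.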
